A study of Mus musculus with 30 samples.

Results

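The steroid hormone receptor genes Esr1, Esr2, Pgr and Nr3c1 and the progesterone receptor membrane component genes Pgrmc1 and Pgrmc2 were followed through mouse ovaries after exposure to phthalate plasticisers. These 6 genes were taken by symbol from a deposited expression table of 18022 genes, each had 1 row, and all 6 passed the filter on low values (a mean above 0 log2 CPM) that left 14740 genes. The androgen receptor was not used here. Whole ovaries came from adult female mice of the outbred CD1 stock, all dosed for 10 days. The agents were DEHP at 20 or 200 ug/kg/day, DiNP at 20 or 100 ug/kg/day, or vehicle, and each group is called below by its agent and dose. Ovaries were collected either 3 months after the last dose or at its end (0 months), which gives 10 groups of 3 libraries and 30 libraries in all. DEHP and DiNP are diesters of phthalic acid used to soften plastics, and DiNP carries longer isononyl side chains where DEHP carries ethylhexyl chains. The labels name no genetic modification, and they do not say whether the 3 libraries of a group came from separate mice or from pools, so the p-values reflect the spread between these samples alone. Age, date of collection and time since dosing changed together between the 2 collections and cannot be told apart.

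Nuclear steroid receptors are transcription factors that bind a hormone, pair up and attach to short DNA elements near the genes they control. In the ovary, Esr2 (estrogen receptor beta) is the form of granulosa cells, which surround the oocyte and make estradiol, whereas Esr1 (estrogen receptor alpha) is found mainly in theca, stromal and surface cells. Pgr, the progesterone receptor, is switched on briefly in granulosa cells of follicles about to ovulate and is needed for the follicle to rupture. Nr3c1 is the glucocorticoid receptor, which answers to adrenal corticosteroids in nearly every cell. Pgrmc1 and Pgrmc2 are small heme-binding membrane proteins, unrelated to the nuclear receptors, that partner cytochrome P450 enzymes and take part in non-classical progesterone responses of granulosa and luteal cells.

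Promoters of Pgrmc1 and Pgrmc2, whose levels moved together over the libraries, are shown beside those of both estrogen receptors. Each holds 250 bases before to 50 bases after the RefSeq transcription start on GRCm38.p6, written 5′ to 3′ on the gene's own strand. The positions are chrX:36597943-36598242 on the plus strand for Pgrmc1 and chr3:41082997-41083296 on the minus strand for Pgrmc2. They are chr10:4611739-4612038 on the plus strand for Esr1 (the more upstream of 2 listed starts) and chr12:76177210-76177509 on the minus strand for Esr2. Capitals mark the GC box GGGCGG, the estrogen receptor half-site TGACC and the glucocorticoid and progesterone receptor half-site AGAACA, each read on either strand.
Pgrmc1: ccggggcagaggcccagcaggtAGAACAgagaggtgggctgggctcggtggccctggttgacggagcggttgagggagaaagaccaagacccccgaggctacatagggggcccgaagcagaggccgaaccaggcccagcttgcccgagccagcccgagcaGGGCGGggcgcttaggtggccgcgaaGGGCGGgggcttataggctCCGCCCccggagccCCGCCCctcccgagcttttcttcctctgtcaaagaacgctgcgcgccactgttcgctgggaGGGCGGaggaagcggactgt
Pgrmc2: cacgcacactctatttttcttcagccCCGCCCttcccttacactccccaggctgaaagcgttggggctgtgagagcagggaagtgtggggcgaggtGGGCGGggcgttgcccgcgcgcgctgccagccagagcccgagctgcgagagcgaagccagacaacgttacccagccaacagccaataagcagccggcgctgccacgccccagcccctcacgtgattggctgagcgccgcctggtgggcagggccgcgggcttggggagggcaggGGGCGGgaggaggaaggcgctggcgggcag
Esr1: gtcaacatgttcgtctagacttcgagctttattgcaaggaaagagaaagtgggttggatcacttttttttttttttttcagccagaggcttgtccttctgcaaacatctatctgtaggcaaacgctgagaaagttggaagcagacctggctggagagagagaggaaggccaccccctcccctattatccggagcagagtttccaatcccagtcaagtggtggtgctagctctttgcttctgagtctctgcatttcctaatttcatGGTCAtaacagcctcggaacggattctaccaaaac
Esr2: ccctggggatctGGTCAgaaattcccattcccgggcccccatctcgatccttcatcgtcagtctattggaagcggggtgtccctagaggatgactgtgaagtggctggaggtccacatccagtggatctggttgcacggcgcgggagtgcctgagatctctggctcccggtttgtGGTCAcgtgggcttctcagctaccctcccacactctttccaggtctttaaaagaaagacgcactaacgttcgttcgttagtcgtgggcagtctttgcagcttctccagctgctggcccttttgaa

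The Pgrmc1 promoter held 5 GC boxes and the Pgrmc2 promoter 3, while the promoters of Esr1 and Esr2 held none. A GC box stood in 35.7% of the 32851 RefSeq promoters of the same length. Pgrmc1 also held 1 copy of AGAACA, which stood in 19% of all promoters. The half-site TGACC occurred 1 time in the Esr1 promoter and 2 times in the Esr2 promoter, against 40.5% of all promoters with at least 1 copy. The full palindrome GGTCANNNTGACC, which contains that half-site on each strand, was absent from every member's window and stood in 0.07% of all promoters. The steroidogenic factor site AAGGTCA, whose last 5 letters are the half-site's reverse complement, was absent as well and stood in 4.72%. GC content was 69.0% for Pgrmc1 and 69.3% for Pgrmc2, against 46.3% for Esr1, 56.0% for Esr2 and a median of 52.7% over all promoters. The Esr1 values depend on the start chosen: the window of its other listed start, not printed, had 59.3% GC and held no TGACC and no GC box. RefSeq promoters were matched for 5 of the 6 genes. The promoter of Pgr, not printed, held 1 GC box and 1 TATAAA, the TATA box letters found in 13.6% of all promoters. That match lay on the opposite strand, at -212 from the transcription start.

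The values are log2 CPM (counts per 1e6 counts of a scaled library size, on a log2 scale) as the authors deposited them, without read counts. The smallest steps between low values correspond to a scaled library size of about 24.8 to 41.3 Mreads (1e6 reads), and the middle library had 30.1. The read depth itself can differ from this size. Pearson correlations between libraries within a group ran from 0.939 to 0.982. None of the 47 marker genes of ovarian and oviduct cells listed in the table was at its lowest value of -3.343 log2 CPM in any library. That alone does not show each cell type to be present, because some came close, such as the oviduct gene Foxj1 at -2.91 in 1 library. Some libraries stood apart in these markers. The luteal list mean (8 genes of the corpus luteum) was 6.29 log2 CPM in DEHP 200, 0 months replicate 3 and 11.68 in replicate 2, the widest range within any group, while DiNP 100, 0 months replicate 3 was higher still at 11.76. Markers of the oviduct, which lies against the ovary, averaged 4.15 log2 CPM in DEHP 20, 3 months replicate 2 and 3.64 in DEHP 200, 3 months replicate 1, against at most 1.91 in the other 28 libraries. These 2 are called oviduct-rich below. Their summed oviduct levels were 223 and 148 CPM. DEHP 20, 3 months replicate 3 came next with 78.2 CPM, and every remaining library had at most 36.3. In whole ovaries, fewer cells of a type and less RNA per cell cannot be told apart.

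The membrane component Pgrmc1 was the most abundant of the 6 genes and the progesterone receptor Pgr the least. Per kilobase of exons, the median over 30 libraries was 142.2 CPM for Pgrmc1, 31.2 for Esr2, 30.4 for Pgrmc2, 14.1 for Nr3c1, 7.03 for Esr1 and 0.465 for Pgr. The order of the 6 genes was the same with the length of the longest transcript in place of all exons. Esr2 and Pgrmc2 are neighbours in that order whose ranges overlapped, from 14.4 to 53.1 CPM per kilobase for Esr2 and from 28.1 to 38.7 for Pgrmc2. In GENCODE annotation of GRCm38, Pgrmc1 lies at 36598206 to 36606079 on the X chromosome and Pgrmc2 at 41066326 to 41083046 on chromosome 3. Esr1 spans 4611593 to 5005614 on chromosome 10, Esr2 76120419 to 76177259 on chromosome 12, Pgr 8899833 to 8968611 on chromosome 9, and Nr3c1 39410545 to 39519421 on chromosome 18.

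The genes also differed in how steady they were. The SD between libraries of 1 group, pooled over the 10 groups, was 0.10 log2 for Pgrmc2, and 5.33% of all genes tested had a lower one. It was 0.19 for Pgrmc1, 0.21 for Nr3c1 and 0.30 for Esr1. Esr2 and Pgr varied most, at 0.54 and 0.57 log2, above 87.8% and 89.3% of all genes. Pgr ran from 0.82 log2 CPM in DiNP 100, 3 months replicate 3 to 2.63 in DEHP 200, 0 months replicate 1.

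**Figure D1:**
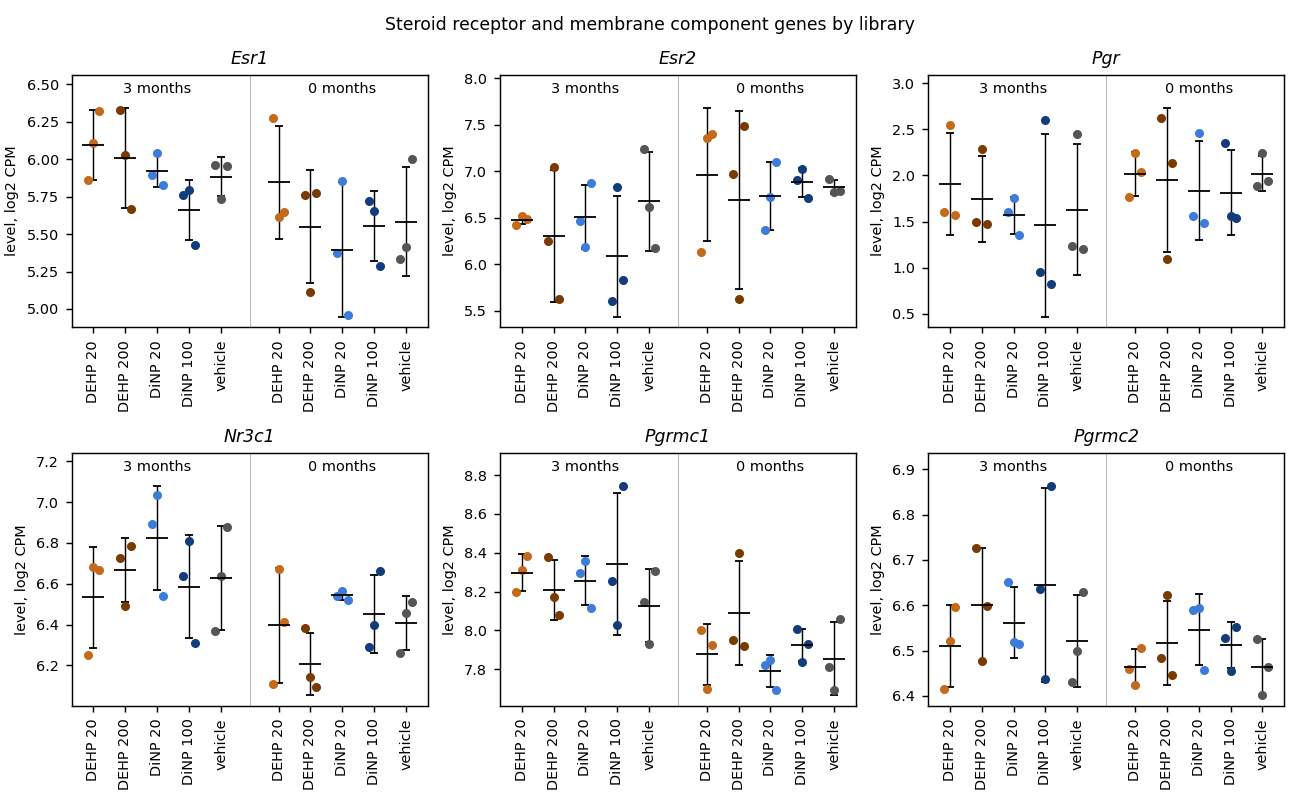
Level of each gene in log2 CPM in every library (points), with the mean and SD of each group of 3 (bars), by treatment and collection time. Pgrmc1 points at 3 months lie mostly above those at 0 months, and Esr2 and Pgr points scatter widely within single groups.

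Whether the phthalates changed these receptors was asked by setting each treated group against the vehicle group of the same collection. None of the 6 genes passed in any of the 8 comparisons: 0 of 48 tests had an adjusted p under 0.05 with limma, and 0 had an unadjusted p under 0.05. The background was also 0% of 14740 genes called in each of the 8 comparisons, with unadjusted p under 0.05 for 1.44% to 9.28% of genes. Differences ran from -0.59 to 0.28 log2, 25 of the 48 lay above 0, and the smallest unadjusted p was 0.14. The groups of 3 failed to overlap in 1 of the 48, for Nr3c1, beside 7.25% over all genes in these 8 comparisons. With libraries weighted by how well they fit the model, 2 tests passed: Pgrmc1 differed by 0.37 in DEHP 20 ovaries and by 0.34 in DiNP 20 ovaries at 3 months (adjusted p = 0.00772 and 0.0271, limma with array weights, which called 1781 and 788 genes in these comparisons). Those weights ran from 0.00491 to 35.1, the highest being that of vehicle, 3 months replicate 2, the vehicle library at 3 months with the lowest Pgrmc1.

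Among the nuclear receptors, the lowest difference was that of Esr2 in DiNP 100 ovaries at 3 months. Esr2 had 5.60, 6.83 and 5.83 log2 CPM in DiNP 100 ovaries at 3 months, against 7.24, 6.62 and 6.18 in vehicle ovaries. Replicate 2 of DiNP 100 lay inside the vehicle range and the other 2 below it. The difference was -0.59 ± 0.42 log2 (SE), with a 95% interval of -1.45 to 0.27 and an adjusted p of 0.576 in limma. All 4 treated groups had an Esr2 mean below that of vehicle at 3 months, with differences of -0.20 ± 0.42 in DEHP 20, -0.37 ± 0.42 in DEHP 200 and -0.17 ± 0.42 in DiNP 20, and these comparisons share their vehicle libraries. Without vehicle replicate 1, the highest of the 3, the DEHP 20 and DiNP 20 differences turned to 0.0779 and 0.11.

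Esr1 had 6.28, 5.61 and 5.65 log2 CPM in DEHP 20 ovaries at 0 months, against 5.33, 5.42 and 6.0 in vehicle ovaries. The groups overlapped, with a difference of 0.26 ± 0.23 log2 and an adjusted p of 1 in limma. At 3 months its lowest difference was -0.22 ± 0.23 in DiNP 100 ovaries. Nr3c1, the glucocorticoid receptor, was at 6.54, 6.57 and 6.52 log2 CPM in DiNP 20 ovaries at 0 months, against 6.26, 6.45 and 6.51 in vehicle ovaries. The lowest DiNP 20 library stood just above the highest vehicle library. This difference of 0.13 ± 0.17 log2 had an adjusted p of 1 in limma, and 0% of all genes were called in that comparison. Nr3c1 differed by -0.20 ± 0.17 in DEHP 200 ovaries at 0 months and by 0.19 ± 0.17 in DiNP 20 ovaries at 3 months. Pgr had its highest difference in DEHP 20 ovaries at 3 months, with 1.60, 2.55 and 1.57 log2 CPM, against 1.24, 2.45 and 1.20 in vehicle ovaries. Each group had replicate 2 far above its other 2 libraries, and the difference was 0.28 ± 0.45 log2. The replicate 2 library of DEHP 20 is also the one with the most oviduct markers. Without it the difference was -0.04, and without replicate 2 of vehicle 0.69. The part of oviduct tissue in this difference was not tested.

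Of the membrane components, Pgrmc1 was above vehicle in 7 of 8 comparisons and Pgrmc2 in 6 of 8, none of them called. Pgrmc1 had 7.95, 8.40 and 7.92 log2 CPM in DEHP 200 ovaries at 0 months, against 7.81, 7.69 and 8.06 in vehicle ovaries. The difference of 0.24 ± 0.15 log2 had an adjusted p of 0.914 in limma, and replicate 2, the luteal-rich library of that group, was the 1 library above the vehicle range. Pgrmc1 in DiNP 100 ovaries at 3 months had 8.25, 8.03 and 8.74 log2 CPM, against 8.15, 7.93 and 8.30 in vehicle ovaries, a difference of 0.22 ± 0.15. Pgrmc2 in the same comparison differed by 0.12 ± 0.09 log2, the highest of its 8 differences.

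The intervals show how large a change these data leave possible. Over the 8 comparisons the 95% intervals reached from -0.20 to 0.31 log2 for Pgrmc2 and from -0.38 to 0.55 for Pgrmc1. They reached from -0.55 to 0.54 for Nr3c1, from -0.71 to 0.75 for Esr1, from -1.45 to 0.99 for Esr2 and from -1.13 to 1.21 for Pgr. A p above the threshold in groups of 3 does not show that the levels were alike.

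**Figure D2:**
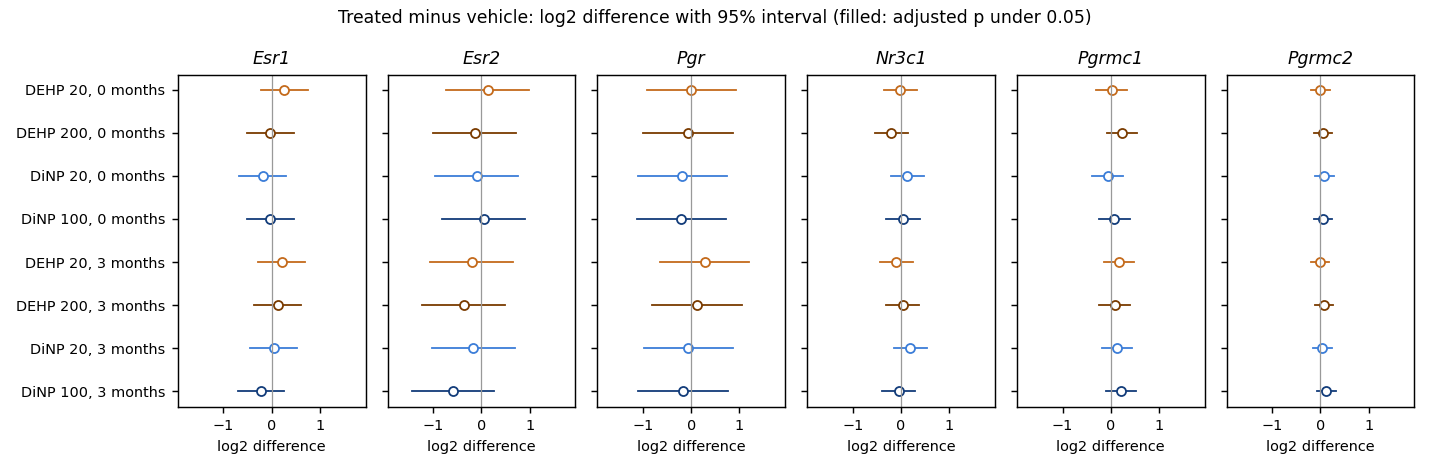
Difference of each treated group from vehicle of the same collection in log2 units (points) with 95% intervals (lines), from limma. All points are open because none of the 48 tests passed, and every interval crosses 0.

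DEHP and DiNP can be compared directly at 20 ug/kg/day, the dose they share. All 12 differences (6 genes at 2 collections) were uncalled in limma, with the background at 0% in both comparisons and 2.05% to 2.9% of genes at an unadjusted p under 0.05. Esr1 came closest: at 0 months it had 6.28, 5.61 and 5.65 log2 CPM in DEHP 20 ovaries, against 5.37, 5.86 and 4.96 in DiNP 20 ovaries. The groups overlapped, and the difference of 0.45 ± 0.23 log2 had an interval of -0.04 to 0.93 and an adjusted p of 1 in limma. Nr3c1 at 3 months had 6.25, 6.68 and 6.67 log2 CPM in DEHP 20 ovaries, against 6.89, 7.04 and 6.54 in DiNP 20 ovaries. That difference was -0.29 ± 0.17, with an interval of -0.63 to 0.05. For Pgrmc1 the intervals were -0.23 to 0.41 at 0 months and -0.28 to 0.36 at 3 months, and for Pgrmc2 -0.27 to 0.11 and -0.24 to 0.14. Esr2 was left with intervals of -0.63 to 1.09 at 0 months and -0.89 to 0.83 at 3 months. Pgr had differences of 0.18 ± 0.45 at 0 months and 0.34 ± 0.45 at 3 months.

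Neither compound gave a called difference between its doses. The 24 tests of the higher against the lower dose (DEHP 200 against DEHP 20, DiNP 100 against DiNP 20, at each collection) had a smallest unadjusted p of 0.166. In each comparison limma called 0% of genes, and 0.583% to 12.2% had an unadjusted p under 0.05. Of the 24 pairs of groups, 1 did not overlap, beside 6.16% over all genes. It was Esr1, with 5.76, 5.80 and 5.43 log2 CPM in DiNP 100 ovaries at 3 months and 5.89, 6.05 and 5.83 in DiNP 20 ovaries. The difference was -0.26 ± 0.23 log2 and the adjusted p 0.64 in limma. Between the higher doses, which are unequal, Esr1 at 3 months averaged 6.01 ± 0.33 log2 CPM in DEHP 200 ovaries and 5.66 ± 0.20 in DiNP 100 ovaries (SD, n = 3 each). Esr2 averaged 6.31 ± 0.71 and 6.09 ± 0.65 in the same 2 groups.

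The collections themselves were compared next. Averaged over the 5 treatments, Pgrmc1, Esr1 and Nr3c1 were higher at 3 months than at 0 months, while Esr2, Pgr and Pgrmc2 did not pass. These 3 of 6 called members stand beside 20.3% of all genes called in that comparison (2986 of 14740, with 1566 higher and 1420 lower).

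Pgrmc1 ran from 7.93 to 8.74 log2 CPM with a median of 8.25 over the 15 libraries at 3 months, and from 7.69 to 8.40 with a median of 7.92 over the 15 at 0 months. All 15 libraries at 3 months lay above the median of those at 0 months, and the ranges overlapped. The difference was 0.34 ± 0.07 log2 (adjusted p = 0.00247, limma). In vehicle ovaries Pgrmc1 had 8.15, 7.93 and 8.30 at 3 months, against 7.81, 7.69 and 8.06 at 0 months, which overlapped by 1 library on each side. In DEHP 20 ovaries it had 8.20, 8.31 and 8.38 at 3 months, against 8.0, 7.70 and 7.93 at 0 months, without overlap. In DiNP 20 ovaries it had 8.30, 8.36 and 8.11 at 3 months, against 7.82, 7.85 and 7.69 at 0 months, again without overlap. The third pair without overlap was DiNP 100, with 8.25, 8.03 and 8.74 at 3 months and 8.01, 7.84 and 7.93 at 0 months. Over all genes and the 5 treatments, 16.2% of such pairs did not overlap. In DEHP 200 ovaries the times mixed, with 8.38, 8.17 and 8.08 at 3 months and 7.95, 8.40 and 7.92 at 0 months. The differences by treatment were 0.42 in DEHP 20, 0.12 in DEHP 200, 0.47 in DiNP 20, 0.42 in DiNP 100 and 0.27 in vehicle, each ± 0.15 log2 and none called alone. The share of genes called within single treatments was 0.0204% in DEHP 20, 0.0136% in DEHP 200, 0.0204% in DiNP 20, 0.0475% in DiNP 100 and 0.00678% in vehicle ovaries, and no member was among them.

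Nr3c1 ran from 6.25 to 7.04 log2 CPM with a median of 6.67 at 3 months, and from 6.10 to 6.67 with a median of 6.41 at 0 months. Of the 15 libraries at 3 months, 7 lay above every library at 0 months. The difference was 0.25 ± 0.07 log2 (adjusted p = 0.0232, limma). It was largest in DEHP 200 ovaries, with 6.72, 6.49 and 6.79 at 3 months and 6.38, 6.14 and 6.10 at 0 months, which did not overlap and differed by 0.46 ± 0.17. The other treatments gave 0.14 in DEHP 20, 0.28 in DiNP 20, 0.14 in DiNP 100 and 0.22 in vehicle ovaries. The call on Nr3c1 was lost under quantile normalization (0.19, adjusted p = 0.0592, limma), without the 2 oviduct-rich libraries (0.23, adjusted p = 0.0684) and without replicates 2 and 3 of DEHP 200 at 0 months, the group with the widest range in luteal markers (0.21, adjusted p = 0.0715). All genes called in these fits were 19.6%, 11.7% and 21%, in that order, against 20.3% in the main fit.

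Esr1 ran from 5.43 to 6.33 log2 CPM with a median of 5.89 at 3 months, and from 4.96 to 6.28 with a median of 5.65 at 0 months. The ranges overlapped widely, although 14 of the 15 libraries at 3 months lay above the median at 0 months. The difference of 0.33 ± 0.11 log2 (adjusted p = 0.0305, limma) was 0.25 in DEHP 20, 0.46 in DEHP 200, 0.53 in DiNP 20, 0.11 in DiNP 100 and 0.30 in vehicle ovaries. The library with the highest Esr1, DEHP 200, 3 months replicate 1, is 1 of the 2 oviduct-rich libraries. The next highest, DEHP 20, 3 months replicate 3 at 6.32, had the highest summed oviduct level after those 2. It remains in the fits and correlations that leave out both oviduct-rich libraries. Then came DEHP 20, 0 months replicate 1 at 6.28, with a summed oviduct level of 20.7 CPM. The library with the most oviduct markers, DEHP 20, 3 months replicate 2, had an Esr1 of 6.11. Leaving out any 1 of 9 libraries ended the call, with adjusted p from 0.0501 to 0.0578 (limma). At 3 months these were DEHP 20 replicate 3, DEHP 200 replicate 1, DiNP 20 replicate 2, DiNP 100 replicate 1 and vehicle replicate 3, and at 0 months DEHP 20 replicates 2 and 3, DiNP 20 replicate 3 and vehicle replicate 1. In these fits 14.6% to 18.1% of all genes were called, against 20.3% in the main fit. The call was also lost under array weights (0.26, adjusted p = 0.0637) and under quantile normalization (0.29, adjusted p = 0.0621, limma). Without both oviduct-rich libraries the difference was 0.30 (adjusted p = 0.0818, limma), and without replicates 2 and 3 of DEHP 200 at 0 months 0.29 (adjusted p = 0.0681). All genes called were 30.5% under array weights and 19.6% under quantile normalization. They were 11.7% without both oviduct-rich libraries and 21% without those replicates of DEHP 200.

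Esr2 ran the other way, from 5.60 to 7.24 log2 CPM with a median of 6.47 at 3 months and from 5.63 to 7.48 with a median of 6.91 at 0 months. Its difference of -0.41 ± 0.19 log2 did not pass (adjusted p = 0.12, limma), though all 5 treatments had a difference below 0. The values were -0.49 in DEHP 20, -0.39 in DEHP 200, -0.22 in DiNP 20, -0.79 in DiNP 100 and -0.15 in vehicle ovaries. Leaving out 1 library turned it to 0.0974 in vehicle (without 3 months replicate 3) and to 0.00896 in DEHP 200 (without 0 months replicate 3). The lowest library at 0 months, replicate 2 of DEHP 200 at 5.63, has the second highest luteal list mean of that collection, and without it the difference was -0.51 with an adjusted p of 0.023 in limma. All genes called in that fit were 29.8%, against 20.3% in the main fit. Pgr ran from 0.82 to 2.60 log2 CPM with a median of 1.57 at 3 months, and from 1.10 to 2.63 with a median of 1.94 at 0 months. Its difference was -0.26 ± 0.20 (adjusted p = 0.366, limma). Pgrmc2 ran from 6.42 to 6.86 log2 CPM at 3 months and from 6.40 to 6.62 at 0 months, a difference of 0.07 ± 0.04 (adjusted p = 0.249, limma). The 95% interval of the Pgrmc2 difference was -0.02 to 0.15 log2.

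**Figure D3:**
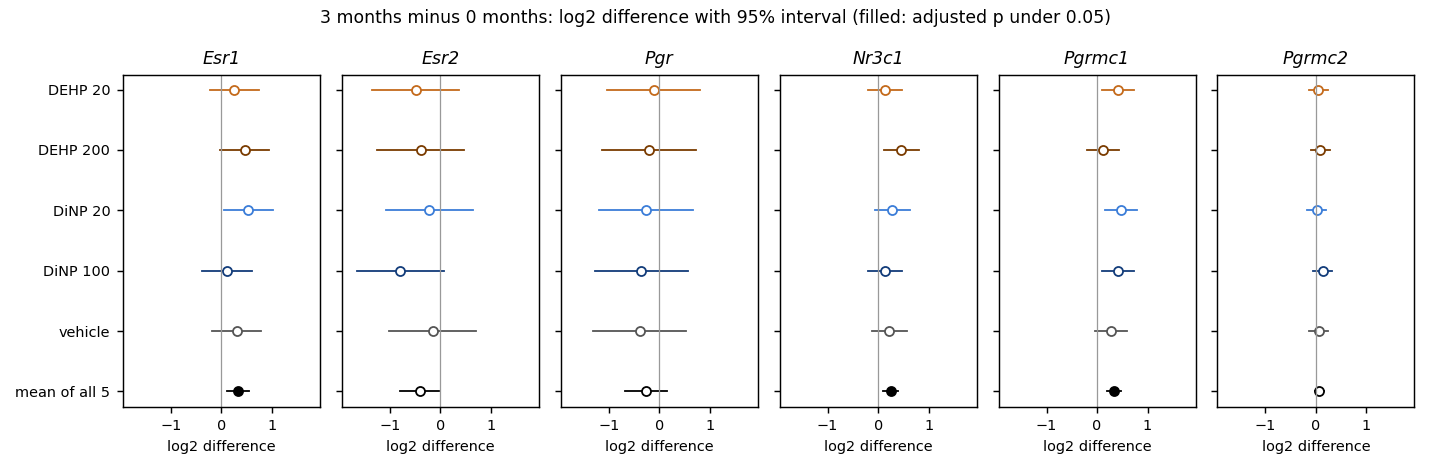
Difference between 3 months and 0 months in log2 units (points) with 95% intervals (lines), for each treatment and for the mean of all 5, from limma. Filled points passed at an adjusted p under 0.05, which only the mean over 5 treatments did, for Esr1, Nr3c1 and Pgrmc1.

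In the order of the 10 group means, the 5 highest for Pgrmc1 were the 5 groups at 3 months, from 8.34 log2 CPM in DiNP 100 to 7.79 in DiNP 20 at 0 months at the other end. For Esr2 the 5 highest were the 5 groups at 0 months, from 6.96 in DEHP 20 down to 6.09 in DiNP 100 at 3 months. For Esr1, Nr3c1 and Pgrmc2, 4 of the 5 highest group means were at 3 months, and for Pgr 1 of 5. No neighbouring groups in any of the 6 orders were farther apart than the within-group SD of that gene. The largest such step was 0.22 log2 for Esr2.

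Whether the time difference itself depended on treatment was tested as an interaction with vehicle. None of the 24 tests passed in limma, 0% of genes were called in each of the 4 comparisons (1.49% to 2.54% at an unadjusted p under 0.05), and the smallest unadjusted p was 0.29. That was Esr2 with DiNP 100, whose time difference minus that of vehicle was -0.64 ± 0.59 log2. For Pgrmc1 the interaction ran from -0.15 with DEHP 200 to 0.19 with DiNP 20, with intervals reaching from -0.60 to 0.64.

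Cell type markers differed between the collections as well. The granulosa list mean (8 genes) was 7.30 ± 0.32 log2 CPM at 3 months and 7.90 ± 0.29 at 0 months, and its summed level ranged from 1990 to 4100 CPM at 3 months and from 2650 to 5880 at 0 months (SD, n = 15 each). The luteal list mean was 11.21 ± 0.73 at 3 months and 10.08 ± 1.29 at 0 months, with summed levels of 11700 to 50200 CPM and 4340 to 41600 CPM. The oocyte list mean was 4.11 ± 0.38 at 3 months and 4.81 ± 0.35 at 0 months, with summed levels of 148 to 396 CPM and 259 to 616 CPM. The oviduct list averaged 1.30 ± 1.23 at 3 months and 0.78 ± 0.63 at 0 months, with summed levels of 15.3 to 223 CPM and 13.9 to 36.3 CPM. These values take in the 7 of its 8 genes that had values, of which 5 passed the filter on low values. The theca and stroma list was at 7.42 ± 0.22 at 3 months and 7.49 ± 0.30 at 0 months, and the surface and mesothelium list at 3.82 ± 0.27 and 3.87 ± 0.28. The part of these differences in the change of Pgrmc1, Nr3c1 and Esr1 over time was not tested.

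The wider pathway was described with 6 gene lists holding 68 genes tested, some of them on 2 lists. In the treated-versus-vehicle comparisons no list gene was called by limma in any of 568 tests, 29 of which had an unadjusted p under 0.05. None was called between compounds (142 tests, 2 with an unadjusted p under 0.05), doses (284 tests, 15) or in the interaction (284 tests, 7). Over time, averaged over the 5 treatments, the lists had 11 calls higher and 12 lower at 3 months, beside 20.3% of all genes called and a median of 0.00321 log2 over all genes.

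Of the 11 genes that respond to estrogen in granulosa or other cells, 8 (72.7%, against 20.3% of all genes called) fell at 3 months relative to 0 months, 0 rose, and the median was -0.40 log2. The pathway lists were drawn up with earlier results of these data known. Their shares are therefore descriptions and no independent evidence of a change in a pathway. With 1 library left out, or without both oviduct-rich libraries or replicates 2 and 3 of DEHP 200 at 0 months, 7 or 8 of the 11 were called lower and 0 higher. Nppc, the natriuretic peptide precursor that holds oocytes in meiotic arrest, fell by 1.00 ± 0.16 log2 (adjusted p = 0.000472, limma), and its receptor Npr2 fell by 0.35 ± 0.10. Fst, the activin-binding protein follistatin, differed by -0.73 ± 0.14. Greb1, a classical estrogen receptor target, differed by -0.47 ± 0.11, the granulosa cell cyclin Ccnd2 by -0.45 ± 0.10, and the gap junction gene Gja1 by -0.40 ± 0.09. Foxl2, a granulosa identity factor, and Cyp19a1, the aromatase that makes estradiol, also fell, with differences of -0.34 ± 0.10 and -1.07 ± 0.38. Both are on the granulosa list, whose mean was 7.30 log2 CPM at 3 months and 7.90 at 0 months. The part of lower granulosa markers in the fall of the 8 genes, on that list or not, was not tested. Lhcgr, Igf1r and Runx1 did not pass, at -0.07, 0.02 and 0.21 log2.

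Among 11 tested genes of ligand synthesis and conversion, 4 rose and 2 fell (54.5% called, against 20.3% of all genes), with a median of 0.42 log2. With 1 library left out these counts ran from 3 to 6 and from 1 to 3, the highest being without DEHP 200, 0 months replicate 2. Without that library 29.8% of all genes were called. The call on Cyp19a1 (adjusted p = 0.0487, limma) was lost in 22 of the 30 fits without 1 library, and that on Akr1c18 (0.0318) in 8. Hsd11b1, which regenerates active glucocorticoid from its inert form, rose by 2.10 ± 0.35 log2 (adjusted p = 0.000684, limma), while Hsd11b2, which inactivates it, was at -0.47 ± 0.18 and did not pass. Akr1c18, which degrades progesterone, rose by 3.43 ± 1.10, Hsd3b1, which makes progesterone, by 0.67 ± 0.15, and Srd5a1, a steroid reductase, by 0.42 ± 0.12. Hsd17b1, which activates estrogens, differed by -0.54 ± 0.14, and Cyp19a1 is the other gene that fell. Both of these are on the granulosa list, whose mean was lower at 3 months, and its part in their fall was not tested. Akr1c18, Hsd3b1, Star and Cyp11a1 are also on the luteal list, and Star (1.69 ± 0.61, adjusted p = 0.052) and Cyp11a1 (0.72 ± 0.33) did not pass in limma. With 1 library left out, Star passed in 8 of 30 fits, Hsd11b2 in 5 and Cyp11a1 in 1, and each of the 3 passed without DEHP 200, 0 months replicate 2.

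Of 12 other receptors and binding partners tested, 3 rose and 1 fell (33.3% called, against 20.3% of all genes). With 1 library left out 2 to 5 rose, the 5 being without DEHP 200, 0 months replicate 2, where 29.8% of all genes were called. Nr3c2, the mineralocorticoid receptor that also binds glucocorticoids, rose by 0.73 ± 0.11 log2 (adjusted p = 0.00031, limma). Paqr5, a membrane progestin receptor, rose by 0.86 ± 0.19, and Nenf, a member of the same heme-binding family as Pgrmc1, by 0.31 ± 0.11 (adjusted p = 0.0457, limma), a call lost in 19 of the 30 fits without 1 library. Esrrb, an orphan receptor related to the estrogen receptors, differed by -0.69 ± 0.14. Gper1, the membrane estrogen receptor, was at -0.36 ± 0.16 and did not pass.

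Of 15 genes known to be induced by the glucocorticoid receptor, 2 rose and 1 fell, and these 20% called were near the 20.3% of all genes. The metallothioneins Mt1 and Mt2 rose by 0.91 ± 0.20 and 0.80 ± 0.16 log2, and the stress gene Ddit4 differed by -0.43 ± 0.12. Fkbp5, Tsc22d3, Per1 and Sgk1, which follow glucocorticoid exposure in many tissues, were at 0.16 ± 0.16, 0.13 ± 0.08, 0.18 ± 0.08 and 0.09 ± 0.24 and did not pass. Per1 passed without vehicle, 3 months replicate 1 (adjusted p = 0.0499), and Tsc22d3 without DiNP 100, 3 months replicate 1 (adjusted p = 0.0453, limma). All genes called in these fits were 24.5% and 16.2%, in that order. Of 8 tested genes that depend on Pgr around ovulation, 2 rose (25% called, also near the 20.3%): the protease gene Ctsl by 0.39 ± 0.07 and the neuropeptide gene Adcyap1 by 2.44 ± 0.56. Adamts1, Edn2 and Ereg of the same list did not pass, at 0.05 ± 0.16, 0.68 ± 0.85 and 0.35 ± 0.25. Of the 14 receptor chaperones and coregulators reported here, 0 were called by limma, with a smallest unadjusted p of 0.166. Without DiNP 100, 3 months replicate 3, the corepressor gene Ncor1 passed (0.15, adjusted p = 0.0245, limma). The Hsp90 genes Hsp90aa1 and Hsp90ab1 were at -0.05 ± 0.12 and 0.05 ± 0.09.

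**Figure D4:**
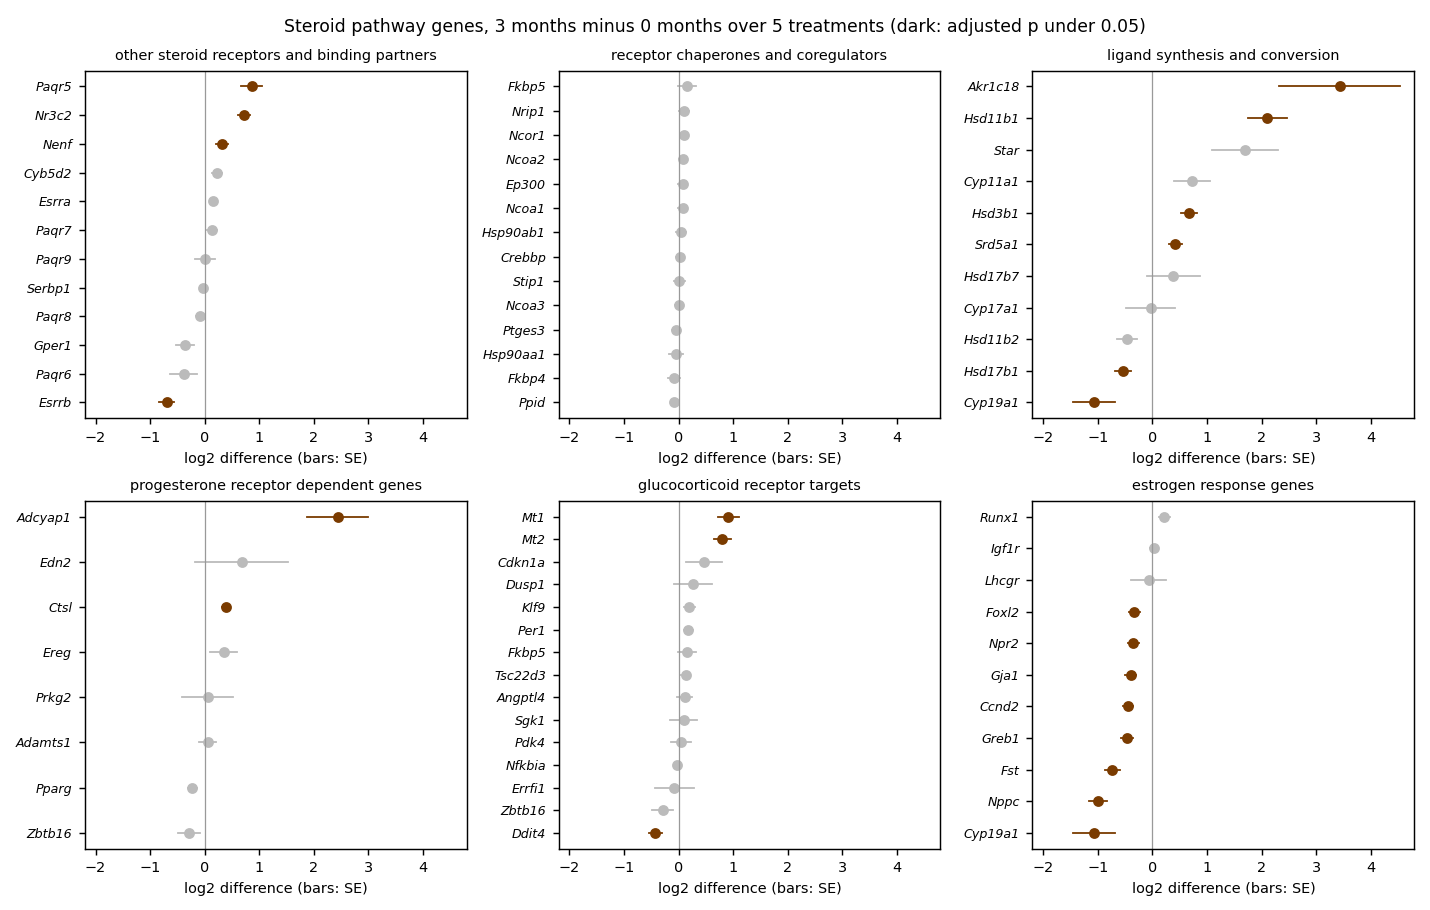
Difference between 3 months and 0 months over the 5 treatments in log2 units (points, with SE as bars) for the genes of 6 steroid pathway lists, with called genes dark. In the estrogen response list 8 of 11 genes are dark and to the left of 0, while the chaperone and coregulator list lies near 0.

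Across libraries, the members followed the tissue's cell markers in different ways. Of 51 relations tested over the 30 libraries (15 pairs of members, and each member with each of 6 marker lists), 18 passed by Pearson's r in a permutation test with 100000 resamples after adjustment over the 51. Since the collections differ in both quantities, each relation was computed again within the 15 libraries of each collection, and there 0 of the 51 passed after adjustment at either collection.

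Esr2 was lower in libraries with higher luteal markers, at r = -0.742 and rho = -0.828 (adjusted p = 0.00017 and 0.000127, permutation test). Within collections r was -0.723 at 3 months (adjusted p = 0.0501) and -0.701 at 0 months (adjusted p = 0.0905, permutation), and it was -0.743 without the 2 libraries farthest from the luteal median. Esr2 was higher with higher oocyte markers, at r = 0.755 and rho = 0.795 over all libraries (adjusted p = 0.00017 and 0.000127, permutation test). Within collections r was 0.714 at 3 months and 0.745 at 0 months, and 0.728 without the 2 farthest libraries. With the granulosa list, whose cells carry Esr2, r was 0.35 and rho 0.405 (adjusted p = 0.128 and 0.066, permutation test), and within collections 0.0749 and 0.135.

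Nr3c1 was lower in libraries with higher granulosa markers, at r = -0.753 and rho = -0.754 (adjusted p = 0.00017 and 0.000127, permutation test), with r = -0.597 at 3 months, -0.685 at 0 months and -0.689 without the 2 farthest libraries. Esr1 was higher with more oviduct markers, at r = 0.534 and rho = 0.533 (adjusted p = 0.00973 and 0.0104, permutation test). Without the 2 oviduct-rich libraries r was 0.425 and no longer passed (adjusted p = 0.0631, permutation), and within collections r was 0.669 at 3 months and 0.376 at 0 months, where neither of these libraries lies. Pgrmc1 was higher with more luteal markers, at r = 0.525 and rho = 0.621 (adjusted p = 0.011 and 0.00261, permutation test), but r within collections was 0.368 at 3 months and 0.282 at 0 months. Pgrmc1 and the granulosa list gave r = -0.505 and rho = -0.543 pooled (adjusted p = 0.0138 and 0.00957, permutation test), and -0.0419 at 3 months and -0.0204 at 0 months, so it did not hold within collections.

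**Figure D5:**
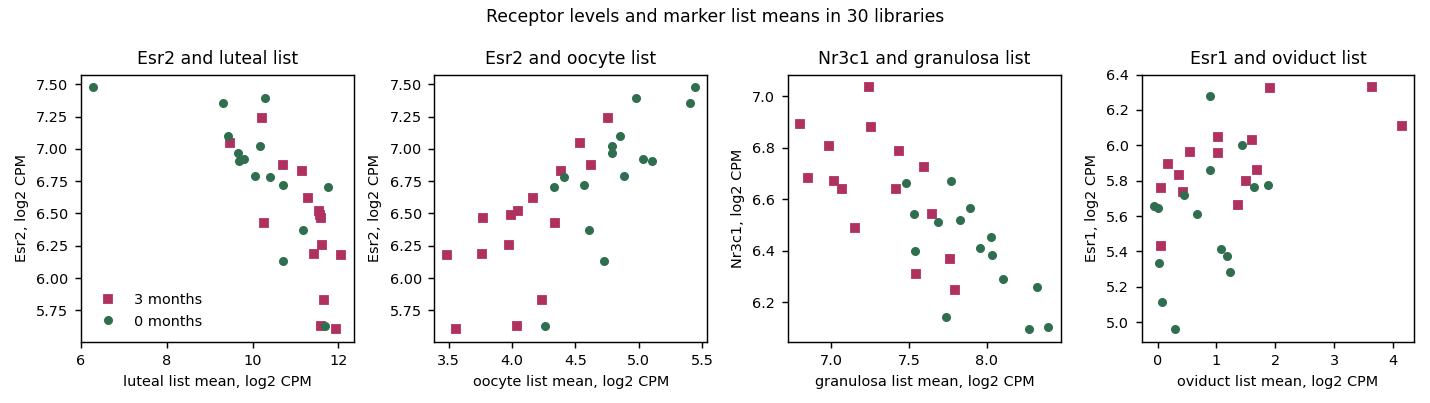
Level of a receptor gene against the mean of a marker list, both in log2 CPM, in the 30 libraries (squares, 3 months; circles, 0 months). Esr2 falls along the luteal list and rises along the oocyte list at both times, Nr3c1 falls along the granulosa list, and 2 libraries lie far to the right on the oviduct axis.

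Between members, Pgrmc1 and Pgrmc2 rose and fell together, at r = 0.684 and rho = 0.556 (adjusted p = 0.000637 and 0.00853, permutation test), with r = 0.764 at 3 months, 0.532 at 0 months and 0.521 without the 2 farthest libraries. Replicate 3 of DiNP 100 at 3 months was the highest library for both, at 8.74 log2 CPM for Pgrmc1 and 6.86 for Pgrmc2, and the lowest for Pgr. Esr2 ran against Pgrmc2, at r = -0.652 and rho = -0.646, with -0.655 at 3 months and -0.577 at 0 months. It ran against Pgrmc1, at r = -0.623 and rho = -0.6, with -0.423 and -0.631. Esr2 and Pgr went together, at r = 0.55 and rho = 0.468 (adjusted p = 0.00761 and 0.0286, permutation test), with 0.488 at 3 months and 0.534 at 0 months. The estrogen receptors Esr1 and Esr2 showed r = -0.0531 and rho = -0.16 (adjusted p = 0.869 and 0.51, permutation test).

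The genes most like each member over the 30 libraries were found by Pearson's r, given as a description because the libraries share depth, time and tissue makeup. For Esr2 they were Zfp385b (r = 0.948), Arhgap28 (0.929) and Adamts6 (0.926), and for Pgrmc1 Dhrs7 (0.935), Tmem176b (0.932) and Tmem176a (0.917). Zfp385b kept r = 0.943 with Esr2 at 3 months and 0.958 at 0 months. For Nr3c1 they were Itpr1 (0.889), Rab3gap2 (0.888) and Cmtm4 (0.868), and for Pgrmc2 Zbtb8os (0.87), S100a13 (0.861) and Chmp2a (0.856). Esr1 was most like Mbnl1 (0.841), Snrk (0.742) and Klf9 (0.731), and Pgr most like Mrvi1 (0.746), Akap6 (0.742) and Rassf9 (0.726). The best match of Pgr, the least abundant member, was thus below that of each other member.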

How the data were processed

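Total RNA of whole mouse ovaries, in 30 libraries with 3 in each of 10 groups, was sequenced from stranded mRNA libraries as single reads, per the labels' protocols. The submitters' processing notes name FastQC 0.11.8, Salmon 0.11.3, edgeR and R 3.5.2, and the build GRCm38.p6. A single matrix of log2 CPM values was deposited and taken unchanged. Its columns sum to 907668 to 1164842 CPM. Sums above 1e6 mean that the values were not scaled to the plain count total of each library. Depth is known only roughly, from the steps between low values, so precision rests on the spread between libraries.

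Genes whose mean exceeded 0 log2 CPM were fitted in limma 3.58.1 (R 4.3.3) with 1 mean per group and a mean-dependent prior. Adjusted p-values are Benjamini-Hochberg over 14740 genes in each of 24 comparisons, and a gene was called under 0.05. The fit and the permutation test were tested on simulated data. The members and lists were chosen with earlier results of these data known. Named genes are the 6 members, the 3 genes most correlated with each, and pathway list members. Members of pathway lists named beyond the smallest p were picked as examples after their values were seen. One gene of the chaperone and coregulator list is not reported here and enters no list count. Replicate numbers were not used to pair the libraries in the main fit. Alternatives were filters, a pseudocount of 1 CPM, median centring, quantile normalization, no trend, array weights, separate fits of each time, a replicate block and leaving out libraries.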

Additional observations from a re-analysis of the deposited data

How the results depend on the processing

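Results were recomputed under each alternative, and the 2 that leave out pairs of libraries were chosen after seeing the data. Over all 144 member differences, 74 changed sign under at least 1 alternative or with 1 library left out. None of the 74 was called, the lowest adjusted p among them being 0.654. Values are given here for the 63 differences that the text names or takes an extreme from, a set drawn up after these sign changes were known, and 14 of the 63 changed sign.

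Over time 3 member tests were called. This became 1 under quantile normalization and 6 under array weights, and 1 without both oviduct-rich libraries or replicates 2 and 3 of DEHP 200 at 0 months. It ran from 2 to 4 with 1 library left out. Array weights gained Esr2 over all treatments (-0.48) and in DEHP 20 (-0.76), and Pgrmc1 in DEHP 20 (0.44) and DiNP 20 (0.46), and lost Esr1. Over time they called 2639 genes in DEHP 20 and 280 in DiNP 20, against 3 in each without weights. Their estimation stopped before it converged. Member tests called against vehicle, 0, became 2 under array weights. Relations passing numbered 0 within 3 months and 0 within 0 months, against 18 pooled, with fewer libraries in each. Pathway list calls stayed within 1.5 times of 11 higher and 12 lower.

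The replicate block kept 3 member tests called over time (Pgrmc1 adjusted p 0.00579, Nr3c1 0.0339, Esr1 0.0475, limma) and 0 in each other kind of comparison. Over all genes, same-numbered libraries did not deviate together on average (mean r of -0.0446 at 3 months and -0.0221 at 0 months). Single pairs ran from -0.454 to 0.388 at 3 months, and such a mean cannot show whether single genes follow the numbers. For Pgr at 3 months, replicate 2 was the highest library of every treatment. With the block, the adjusted p of Pgr over time was 0.245, against 0.366 without it (limma).

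Signs changed as follows, and the cause was not tested. Esr2 for DEHP 20 minus DiNP 20 at 3 months was 0.00469 under quantile normalization and 0.0162 under array weights. Pgrmc2 for DEHP 20 minus vehicle at 3 months was 0.0101 and 0.0207 under the same alternatives. Array weights put Pgr for DEHP 20 minus vehicle at 3 months at -0.29, Pgr for vehicle over time at 0.39 and the Pgrmc1 interaction for DEHP 200 at 0.14. Without both oviduct-rich libraries that Pgr difference for DEHP 20 was -0.0426.

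Leaving out 1 library at a time gave these ranges where a sign changed. Over time, Esr1 in DiNP 100 ran from -0.0250 to 0.23, Nr3c1 in DEHP 20 from -0.00732 to 0.28, and Esr2 from -0.92 to 0.00896 in DEHP 200 and from -0.43 to 0.0974 in vehicle. Against vehicle at 0 months, Esr2 with DEHP 20 ran from -0.0850 to 0.54 and Pgrmc1 with DiNP 20 from -0.15 to 0.0376. Against vehicle at 3 months with DEHP 20, Pgr ran from -0.0426 to 0.69, Pgrmc2 from -0.0540 to 0.0459 and Esr2 from -0.45 to 0.0779, and Esr2 with DiNP 20 ran from -0.42 to 0.11. For DEHP 20 minus DiNP 20 at 3 months, Esr2 ran from -0.19 to 0.15 and Pgrmc1 from -0.0299 to 0.0930. The Pgrmc1 interaction for DEHP 200 ran from -0.26 to 0.00246. Without DiNP 100, 3 months replicate 2, Pgrmc1 in DiNP 100 passed over time (0.57, adjusted p 0.0271, limma).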
